A study of Homo sapiens with 8 samples.

Results

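The mevalonate pathway up to squalene was described here through 8 enzymes, ACAT2, HMGCS1, MVK, PMVK, MVD, IDI1, FDPS and FDFT1, of the 16951 genes that had a named probe among those tested. They were chosen by symbol, as enzymes that carry acetyl-CoA to squalene, and not by a cut on their measured values. Earlier results of these data were known at that point. Each had 1 named probe on the array, so no choice between named probes was needed. Probes whose identifier gave no symbol were not searched. The study cultured OVSAHO and KURAMOCHI, both established lines from high-grade serous ovarian cancer, with simvastatin or with L-778123, and profiled RNA on 8 single-colour arrays, 2 for each of the 4 groups. The groups were OVSAHO with simvastatin, OVSAHO with L-778123, KURAMOCHI with simvastatin and KURAMOCHI with L-778123. Simvastatin inhibits HMG-CoA reductase, and L-778123 inhibits both farnesyltransferase and type I geranylgeranyl transferase. The labels of the samples gave neither dose nor time of exposure, no genetic change was named in any group, and arrays of cells without either drug were not analysed here. Each difference below is therefore between the drugs, and a level that was higher with simvastatin may equally be called lower with L-778123. The labels did not say whether the 2 arrays of a group came from separate cultures, so that p-values measure only the spread between these arrays, which may be technical.

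The cytosolic pathway begins with ACAT2, a thiolase that joins acetyl-CoA units, and HMGCS1, which makes HMG-CoA. HMG-CoA reductase, the step that simvastatin blocks, then yields mevalonate, which MVK and PMVK phosphorylate and MVD decarboxylates to isopentenyl diphosphate. IDI1 interconverts this with its isomer, FDPS condenses these units to farnesyl diphosphate, and FDFT1 joins farnesyl diphosphate molecules into squalene, the step that commits the carbon to sterols. Farnesyl diphosphate is also the donor for protein farnesylation and the precursor of geranylgeranyl diphosphate, the substrates of the transferases that L-778123 inhibits. The genes of the pathway are known targets of the sterol regulatory element binding proteins, which are released from the endoplasmic reticulum when its sterol falls and act on promoters together with NF-Y, a factor that binds the CCAAT box, and Sp1, which binds GC boxes.

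Levels are log2 processed signal relative to the 75th percentile of the array, and a difference of 1 is 2-fold. All 8 arrays lay on 1 slide and each group had positions of its own, and an effect of position cannot be told apart from one of group. The 75th percentile was an intensity of 324 to 437, and it was lower on each of the 4 simvastatin arrays (324 to 367) than on each of the 4 L-778123 arrays (399 to 437). The part of this in the results was not tested. On each array 51.8% to 57.5% of 58162 probes were well above background and 0 probes were saturated, and replicates correlated at 0.995 to 0.996. All 10 markers of serous carcinoma were well above background on all arrays, with a summed level of 453 to 785 times the 75th percentile. The summed level was 0.639 to 1.69 for the 3 blood cell markers with a probe, 0.213 to 0.883 for 3 endothelial markers and 0.0363 to 3.21 for 4 fibroblast markers. Of these, 2 blood cell and 2 endothelial markers were well above background on all arrays. CD3E was so on 1 array, and COL1A1 and COL3A1 on 4 arrays each. DCN, LUM and PECAM1 were not well above background on any array. The 8 enzymes were well above background on all 8 arrays, and their replicates differed by 0.000887 to 0.397 with a median of 0.0774 on the log2 scale.

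The promoters of the enzymes are shown first, as windows that were searched for the letters their known regulators bind. The table of RefSeq promoters used here (GRCh38.p14) held a window for 6 of the 8. Each sequence is the 250 bases before the start, 5′ to 3′ on the strand of the gene, and the capitals mark CCAAT or its reverse complement ATTGG. Where a gene had several starts, the window with most such matches is printed, which was the case for HMGCS1 (2 windows) and IDI1 (3 windows).
HMGCS1 (chr5:43313413-43313662, minus strand): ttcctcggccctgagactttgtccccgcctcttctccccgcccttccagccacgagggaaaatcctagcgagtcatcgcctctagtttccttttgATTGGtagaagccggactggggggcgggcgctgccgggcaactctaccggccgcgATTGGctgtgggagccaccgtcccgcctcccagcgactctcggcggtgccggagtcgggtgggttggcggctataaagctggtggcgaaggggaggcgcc
MVK (chr12:109573544-109573793, plus strand): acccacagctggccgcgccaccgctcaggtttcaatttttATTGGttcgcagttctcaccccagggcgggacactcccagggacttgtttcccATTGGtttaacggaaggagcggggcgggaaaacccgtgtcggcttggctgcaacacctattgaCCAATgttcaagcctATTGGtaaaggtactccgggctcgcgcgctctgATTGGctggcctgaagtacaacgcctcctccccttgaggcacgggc
PMVK (chr1:154936720-154936969, minus strand): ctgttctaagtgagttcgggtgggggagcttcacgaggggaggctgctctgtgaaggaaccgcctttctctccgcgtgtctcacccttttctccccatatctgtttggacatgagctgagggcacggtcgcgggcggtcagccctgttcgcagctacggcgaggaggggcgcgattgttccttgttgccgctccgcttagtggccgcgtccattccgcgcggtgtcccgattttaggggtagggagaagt
MVD (chr16:88663092-88663341, minus strand): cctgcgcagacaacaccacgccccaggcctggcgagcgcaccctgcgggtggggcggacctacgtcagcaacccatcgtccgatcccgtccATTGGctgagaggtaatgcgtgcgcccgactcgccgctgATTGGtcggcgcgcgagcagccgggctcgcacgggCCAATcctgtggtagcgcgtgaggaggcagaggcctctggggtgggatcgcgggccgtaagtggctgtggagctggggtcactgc
IDI1 (chr10:1048887-1049136, minus strand): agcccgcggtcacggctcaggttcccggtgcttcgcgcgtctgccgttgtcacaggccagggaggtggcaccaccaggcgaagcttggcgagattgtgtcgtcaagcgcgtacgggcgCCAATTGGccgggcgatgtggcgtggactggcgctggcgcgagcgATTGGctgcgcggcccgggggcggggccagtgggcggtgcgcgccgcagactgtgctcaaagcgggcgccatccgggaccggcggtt
FDPS (chr1:155308616-155308865, plus strand): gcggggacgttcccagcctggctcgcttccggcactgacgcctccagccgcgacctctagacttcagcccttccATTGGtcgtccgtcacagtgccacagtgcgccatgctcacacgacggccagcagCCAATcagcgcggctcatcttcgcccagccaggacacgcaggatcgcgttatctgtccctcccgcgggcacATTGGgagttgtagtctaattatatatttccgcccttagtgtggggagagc

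MVK held 5 CCAAT matches on either strand, MVD, FDPS and IDI1 held 3 each, HMGCS1 held 2 and PMVK held 0. In IDI1, 2 of the matches overlap as the palindrome CCAATTGG and were counted separately. Among 35116 promoter windows of the same length, 32.0% held at least 1 match, 9.53% at least 2 and 2.93% at least 3. The other window of HMGCS1 held 0, and those of IDI1 held 2 and 0. The GC box GGGCGG, searched on both strands, was found in all 6 printed windows, with 2 matches in HMGCS1, MVK and IDI1 and 1 in PMVK, MVD and FDPS, against 42.6% of all windows with at least 1. The E-box CACGTG, in 6.34% of all windows, was in none of these genes' windows. The letters ACCCCAC, a classical form of the sterol regulatory element, were in 5.42% of all windows and, among these genes, in 1 window of IDI1 that is not printed. These matches are letters in a window and were not tested as binding sites. A link between their number and the differences below was not tested. The map of the matches shows where they lie relative to the start.

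**Figure D1:**
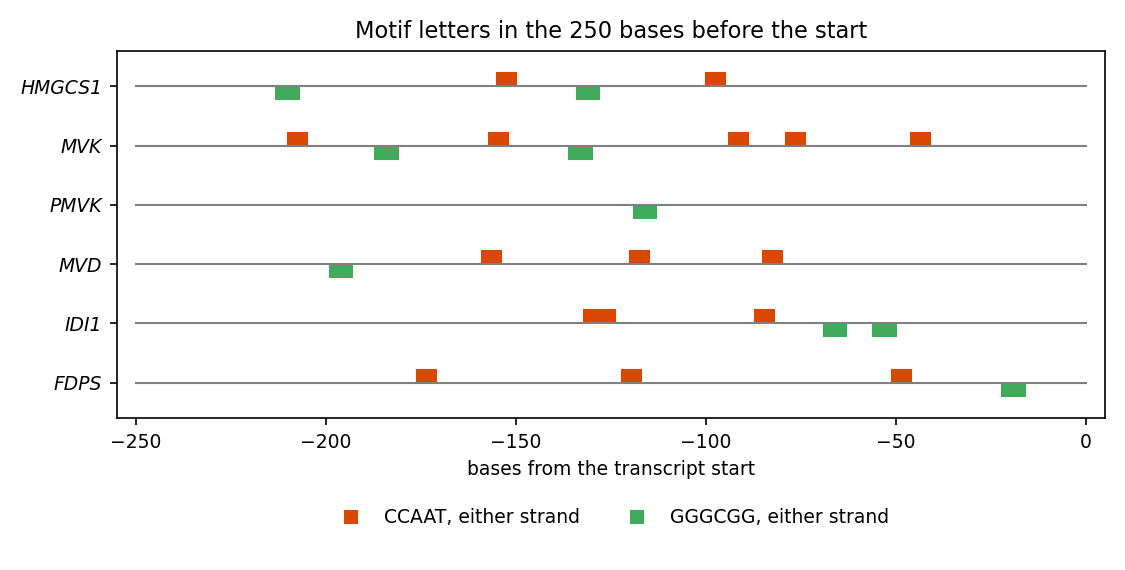
Position of matches in the promoter windows of 6 enzymes, with the distance from the start of the gene in bases on the x axis and 1 line per gene. Orange marks are CCAAT and green marks are GGGCGG, each on either strand. MVK has 5 orange marks and PMVK has 0.

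The opening enzymes of the pathway, which build HMG-CoA, were much higher in KURAMOCHI cells with simvastatin than in any other group. The HMGCS1 level was 4.41 and 4.33 on the KURAMOCHI simvastatin arrays, 2.79 and 2.82 on the KURAMOCHI L-778123 arrays, 2.30 and 2.32 on the OVSAHO simvastatin arrays and 1.94 and 1.88 on the OVSAHO L-778123 arrays. No arrays of different groups overlapped, and each group differed from the next in that order (adjusted p from limma 1.47e-04, 4.87e-04 and 0.00308). The ACAT2 level was 5.57 and 5.38 in KURAMOCHI with simvastatin, 4.61 and 4.32 in KURAMOCHI with L-778123, 3.40 and 3.49 in OVSAHO with simvastatin, and 3.67 and 3.27 in OVSAHO with L-778123. The OVSAHO L-778123 arrays of ACAT2 lay on either side of the simvastatin arrays and had the widest gap between replicates among the 8 enzymes in any group, 0.397. The ACAT2 groups of OVSAHO were therefore not separated, while both groups of KURAMOCHI stood above them and apart from each other.

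The 3 enzymes that turn mevalonate into isopentenyl diphosphate did not move alike. The MVK level was 5.18 and 5.25 in KURAMOCHI with simvastatin, 4.29 and 4.30 in OVSAHO with simvastatin, 4.20 and 4.11 in KURAMOCHI with L-778123, and 3.91 and 4.01 in OVSAHO with L-778123. The MVD level was 2.39 and 2.28, 1.26 and 1.21, 1.19 and 1.10, and 0.80 and 0.79 in the same order of groups. In both genes KURAMOCHI with simvastatin stood alone at the top, and OVSAHO with simvastatin and KURAMOCHI with L-778123, the groups in the middle, were not separated (adjusted p from limma 0.116 for MVK and 0.278 for MVD). The PMVK level was 4.43 and 4.50 in OVSAHO with simvastatin, 4.26 and 4.31 in OVSAHO with L-778123, 4.05 and 4.15 in KURAMOCHI with simvastatin, and 3.94 and 3.82 in KURAMOCHI with L-778123. PMVK, the phosphomevalonate kinase, was the only one of the 8 that was higher in OVSAHO than in KURAMOCHI with simvastatin, and no neighbouring groups in its order passed the test (adjusted p from limma 0.0564 to 0.0830).

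The prenyl diphosphate enzymes and squalene synthase followed a pattern each. The IDI1 level was 4.36 and 4.22 in KURAMOCHI with simvastatin, 3.08 and 2.90 in KURAMOCHI with L-778123, 2.89 and 2.72 in OVSAHO with L-778123, and 2.84 and 2.76 in OVSAHO with simvastatin. Only the KURAMOCHI simvastatin arrays stood apart, and the 3 lower groups were not separated (adjusted p from limma 0.132 to 0.947). The FDPS level was 6.49 and 6.48 in KURAMOCHI with simvastatin, 6.12 and 6.18 in OVSAHO with L-778123, 6.15 and 6.07 in KURAMOCHI with L-778123, and 5.57 and 5.57 in OVSAHO with simvastatin. The lines thus lay together with L-778123 (adjusted p from limma 0.549) and at opposite ends with simvastatin. The FDFT1 level was 4.46 and 4.48 in KURAMOCHI with simvastatin, 4.01 and 4.01 in OVSAHO with simvastatin, 3.49 and 3.51 in OVSAHO with L-778123, and 3.42 and 3.43 in KURAMOCHI with L-778123. The L-778123 groups were not separated for FDFT1 (adjusted p from limma 0.255), and the simvastatin groups stood above them in both lines. RefSeq names 10 pseudogenes of FDPS and 3 of IDI1, and whether their transcripts reach these probes was not tested, since probe sequences were not used here.

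**Figure D2:**
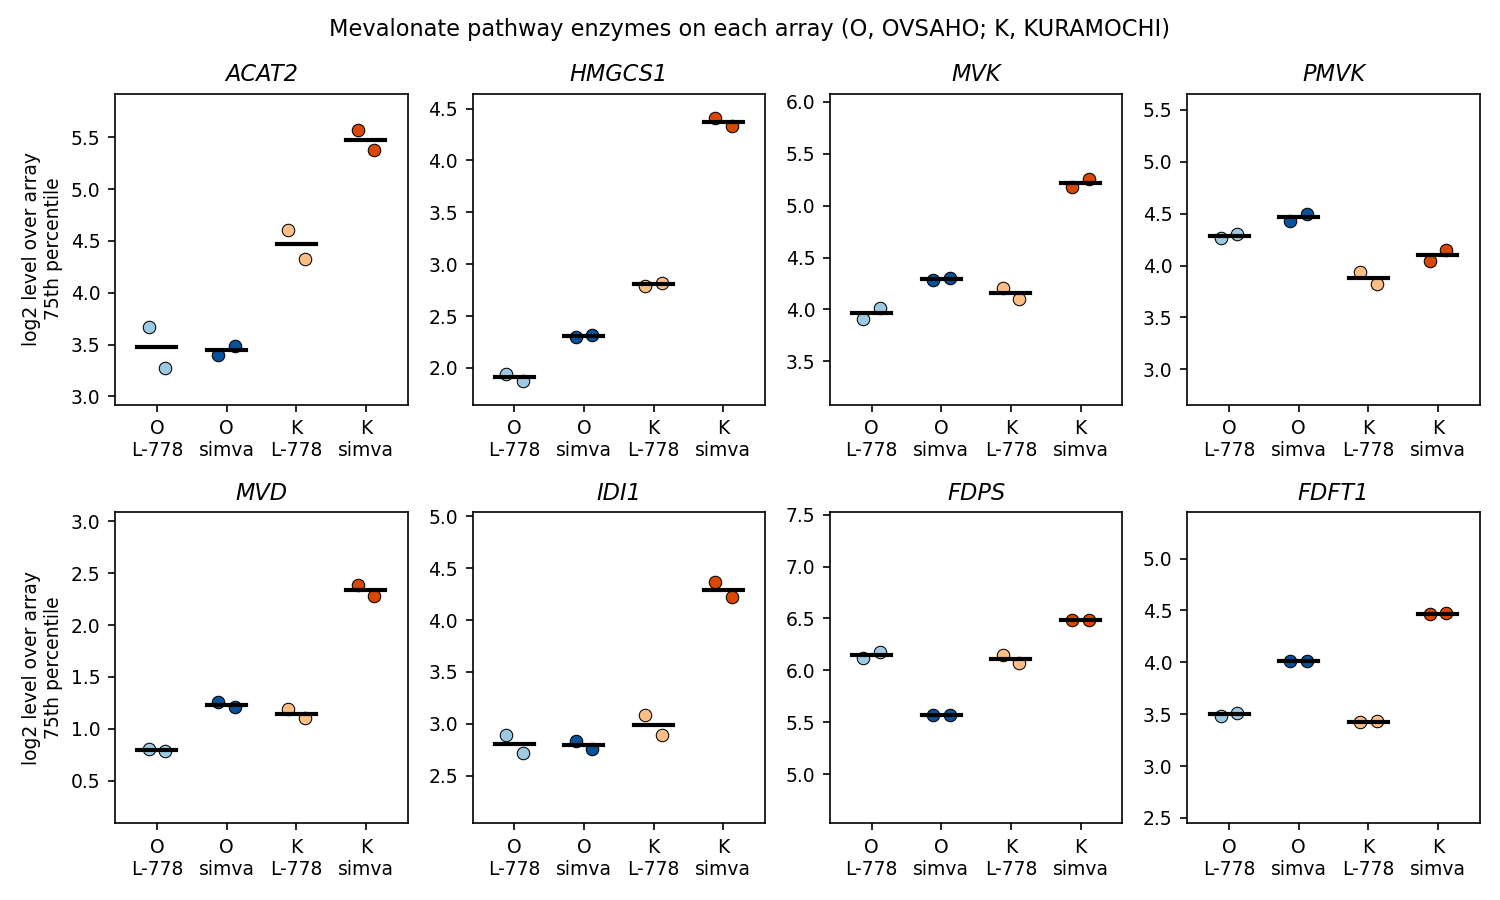
Level of each of the 8 enzymes on each array, as log2 processed signal relative to the 75th percentile of the array (y axis), by group (x axis), with 2 arrays per group as points and their mean as a black line. Each panel spans the same range of the log2 scale. The KURAMOCHI simvastatin arrays are the highest for all enzymes except PMVK, and the OVSAHO simvastatin arrays of FDPS, at 5.57, are the lowest for that enzyme.

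In KURAMOCHI cells, 7 of the 8 enzymes were higher under simvastatin than under L-778123 in the test across all probes (limma with Benjamini-Hochberg adjustment, adjusted p under 0.05), as were 14.0% of all 33753 probes tested, and 0 were lower, as were 17.3% of probes. Of these, 6 also differed by at least 2-fold, against 2.05% of probes called higher at that size. HMGCS1 rose by 1.57 (SE 0.059, 2.96-fold, adjusted p from limma 1.47e-04), which ranked 253 from the top among the 33753 probes. IDI1 rose by 1.30 (SE 0.10, 2.47-fold, adjusted p from limma 7.32e-04) and ranked 418, and MVD rose by 1.19 (SE 0.067, 2.28-fold, adjusted p from limma 3.12e-04). These 3 act at separate steps of the pathway, before and after mevalonate. MVK (1.06, 2.09-fold), FDFT1 (1.04, 2.06-fold) and ACAT2 (1.01, 2.01-fold) lay just above 2-fold, with adjusted p from limma of 4.48e-04, 2.25e-04 and 0.00779. ACAT2 did not pass in the 2-way analysis of variance named in the methods, and it was under 2-fold without the first KURAMOCHI simvastatin array (0.91) or without the second KURAMOCHI L-778123 array (0.86). FDPS rose by less, 0.38 (SE 0.057, 1.30-fold, adjusted p from limma 0.00602). PMVK differed by 0.22 (95% interval 0.045 to 0.39) and did not pass (adjusted p from limma 0.0639). It passed under quantile normalization, normexp correction and 3 other settings, at 0.22 to 0.25, still far below 2-fold. All 8 enzymes had both simvastatin arrays above both L-778123 arrays, as did 34.1% of probes. The median difference was 1.05, against 0.00096 over all probes tested.

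In OVSAHO cells, 4 enzymes were higher with simvastatin (23.0% of all probes were), 1 was lower (25.1% of all probes were) and 3 did not pass. In limma 0 of the 8 reached 2-fold, a size at which 11.0% of probes were called, while 6 had an unadjusted p under 0.05, as did 55.5% of probes. The 2-way analysis of variance also called 0. FDFT1 rose by 0.51 (SE 0.050, 1.42-fold, adjusted p from limma 6.92e-04), MVD by 0.44 (SE 0.067, 1.35-fold, 0.00345), HMGCS1 by 0.40 (SE 0.059, 1.32-fold, 0.00308) and MVK by 0.33 (SE 0.069, 1.26-fold, 0.0108). The MVK difference no longer passed without the second OVSAHO simvastatin array (0.32), without the first OVSAHO L-778123 array (0.28), or in the 2-way analysis of variance. FDPS, which makes farnesyl diphosphate, fell by 0.58 (SE 0.057, adjusted p from limma 7.00e-04), with both simvastatin arrays below both L-778123 arrays, as in 37.8% of probes. It was the only enzyme with opposite directions in the lines that passed in each. PMVK differed by 0.18 (95% interval 0.0054 to 0.35, adjusted p from limma 0.0830), and it passed at 0.21 with quantile normalization and in the authors' table. ACAT2 (-0.029, 95% interval -0.44 to 0.38) and IDI1 (-0.0094, 95% interval -0.26 to 0.24) gave no direction, and their intervals leave differences of up to about these sizes. The median over the 8 enzymes was 0.26, against 0.014 over all probes tested.

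**Figure D3:**
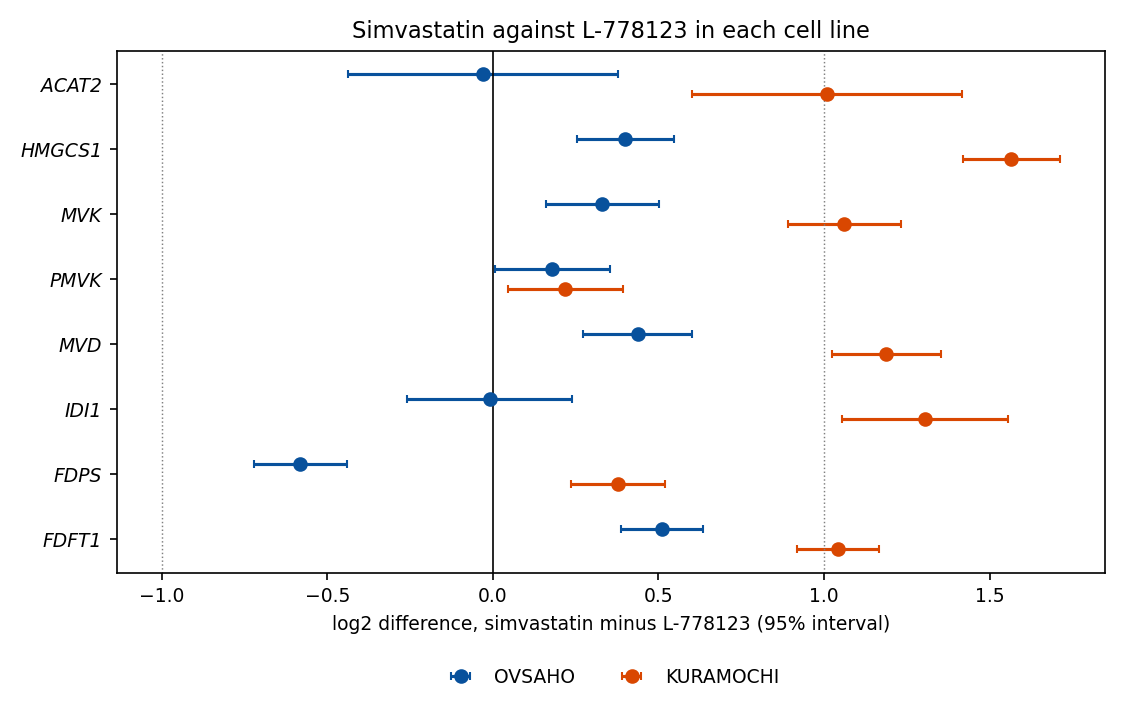
Difference between simvastatin and L-778123 for each enzyme (x axis, log2, positive where higher with simvastatin) in OVSAHO and KURAMOCHI, with points for the fitted difference and lines for its 95% interval. KURAMOCHI lies to the right of OVSAHO for the 8 enzymes, clearly for all but PMVK, and FDPS is left of 0 in OVSAHO at -0.58 and right of 0 in KURAMOCHI at 0.38.

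The drug difference itself differed between the lines for 7 of the 8 enzymes, with the signed value lower in OVSAHO each time, and 11.7% of all probes passed in that direction (limma, OVSAHO difference minus KURAMOCHI difference). The gap was widest for IDI1 (-1.31, SE 0.14, adjusted p from limma 0.00312) and HMGCS1 (-1.17, SE 0.084, 9.37e-04). ACAT2 (-1.04, SE 0.23, 0.0285) and FDPS (-0.96, SE 0.081, 0.00144) followed, then MVD (-0.75, SE 0.094, 0.00498), MVK (-0.73, SE 0.097, 0.00584) and FDFT1 (-0.53, SE 0.071, 0.00589). FDPS, despite its small difference within KURAMOCHI, fell in OVSAHO, so that its gap between the lines was wider in value than those of MVD, MVK and FDFT1. The ACAT2 result did not hold when any of 6 single arrays was left out (all but the second OVSAHO L-778123 array and the first KURAMOCHI L-778123 array), at -0.84 to -1.24 over the 8 arrays left out. The PMVK difference between the lines was -0.039 (95% interval -0.29 to 0.21, adjusted p from limma 0.810). The median over the enzymes was -0.86, against 0.0038 over all probes.

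Set drug by drug, the same arrays give the gap between the lines with each drug. With simvastatin, all 8 enzymes differed between the lines (70.9% of all probes did), 7 lower in OVSAHO (34.3% of probes) and PMVK higher, by 0.37. HMGCS1 was 4.17-fold, ACAT2 4.09-fold, IDI1 2.82-fold and MVD 2.15-fold lower in OVSAHO, the 4 that were called, against 16.7% of probes called lower, and MVK, FDPS and FDFT1 were 1.90-fold, 1.89-fold and 1.38-fold lower. With L-778123, 5 passed (69.5% of all probes did) and 0 reached 2-fold in limma, where 33.1% of probes were called and 5 enzymes, and 71.8% of probes, had an unadjusted p under 0.05. ACAT2 (-0.99), HMGCS1 (-0.90), MVD (-0.35) and MVK (-0.19, adjusted p from limma 0.0481) were lower in OVSAHO and PMVK (0.40) was higher. The enzymes on the prenyl diphosphates were the 3 that did not pass with L-778123, with IDI1 at -0.18 (95% interval -0.43 to 0.067), FDPS at 0.041 (-0.10 to 0.18) and FDFT1 at 0.071 (-0.053 to 0.19). Averaged over both drugs, all 8 passed (77.7% of all probes did), and ACAT2 (2.85-fold lower in OVSAHO) and HMGCS1 (2.79-fold lower) were called, against 33.7% of probes. Most probes differed between these lines, and the share of enzymes called, 2 of 8, was no larger than that of all probes.

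**Figure D4:**
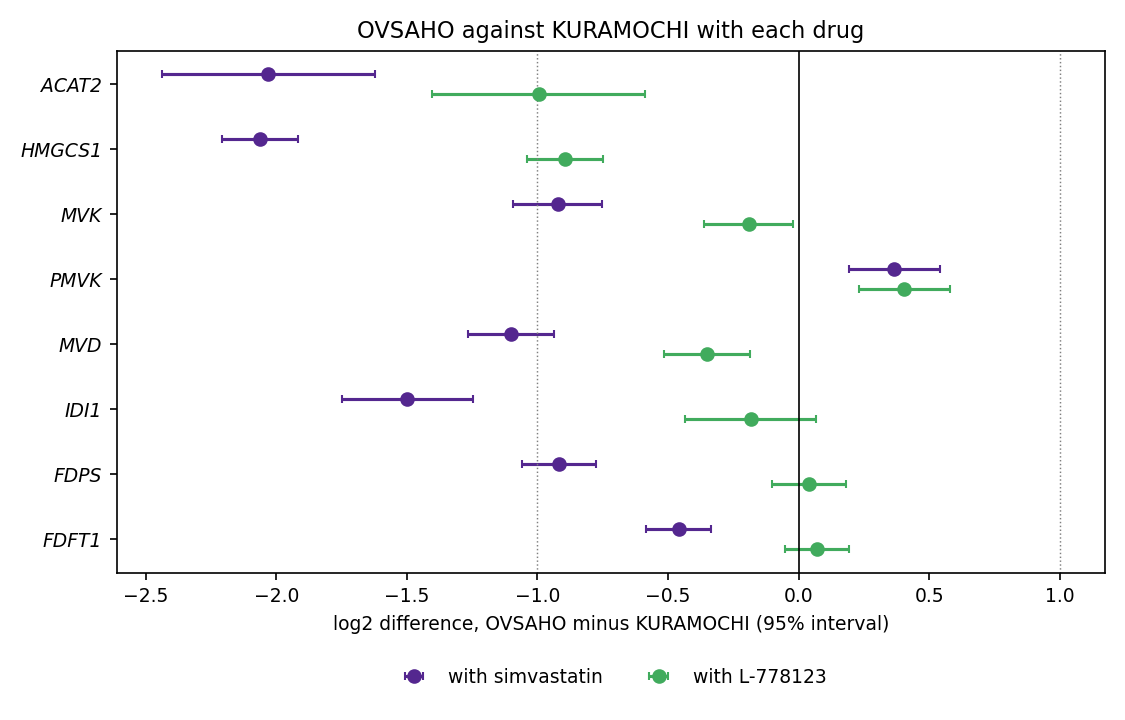
Difference between OVSAHO and KURAMOCHI for each enzyme (x axis, log2, negative where lower in OVSAHO) with simvastatin and with L-778123, with points for the fitted difference and lines for its 95% interval. With simvastatin 7 enzymes lie left of 0, down to -2.06 for HMGCS1, while with L-778123 IDI1, FDPS and FDFT1 have intervals that include 0, and PMVK is right of 0 with either drug.

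Across the 8 arrays, which share their groups of 2 and their slide, Pearson's r was 0.241 (FDPS with FDFT1) to 0.991 over the 21 pairs of enzymes other than PMVK, with a median of 0.870, and -0.633 to 0.229 over the 7 pairs with PMVK, with a median of -0.329. Against the mean of the standardized levels of the 8, MVK (0.989), MVD (0.984), IDI1 (0.983) and HMGCS1 (0.954) followed it most closely, FDFT1 (0.883) and ACAT2 (0.865) less so, and FDPS (0.642) and PMVK (-0.187) least. Each enzyme is part of that mean, so these values describe the 8 arrays and nothing else. Of 16938 genes ranked, the enzymes included, 155 had r of at least 0.9 with this profile over the 8 arrays. The 5 most alike, enzymes left out, were CLEC18B (0.992), BOC (0.992), GOLGA5 (0.992), ISM1 (0.986) and SNAI3-AS1 (0.980), of which BOC is a co-receptor of hedgehog signalling and GOLGA5 a golgin.

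MVK and MVD each start head to head with another gene, and these neighbours were chosen after earlier results were seen. MMAB, which encodes an enzyme of adenosylcobalamin synthesis, starts 290 bases from the start of MVK, and the antisense RNA SNAI3-AS1 starts 282 bases from that of MVD, by RefSeq. The MMAB level was 2.34 and 2.22 in KURAMOCHI with simvastatin, 1.07 and 1.07 with L-778123, 0.75 and 0.72 in OVSAHO with simvastatin, and 0.44 and 0.28 with L-778123. The simvastatin arrays of KURAMOCHI stood above its L-778123 arrays, as for MVK, by 1.21 (SE 0.079, adjusted p from limma 4.48e-04). In OVSAHO MMAB was higher with simvastatin by 0.38 (SE 0.079, adjusted p from limma 0.0107). The drug difference of MMAB differed between the lines by -0.84 (adjusted p from limma 0.00585). The SNAI3-AS1 level was 1.65 and 1.67, 0.67 and 0.50, 0.76 and 0.71, and 0.26 and 0.32 in the same order of groups. Its differences were 1.08 in KURAMOCHI (SE 0.073, adjusted p from limma 5.15e-04) and 0.45 in OVSAHO (SE 0.073, 0.00453), beside 1.19 and 0.44 for MVD. Each partner thus had its own probe and passed in the same direction in each line as the enzyme beside it. Of all probes, 14.0% passed as higher in KURAMOCHI and 23.0% in OVSAHO, and 11.7% passed below 0 for the difference between the lines. In KURAMOCHI, 34.1% of probes had both simvastatin arrays above both L-778123 arrays.

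The other genes of the pathway were taken from lists. After squalene, 11 of 12 sterol synthesis genes were higher with simvastatin in KURAMOCHI (14.0% of all probes), 0 were lower (17.3%) and 6 were called higher (2.05%), with a median of 0.96. In OVSAHO 5 were higher (23.0% of all probes), 2 were lower (25.1%) and 1 was called (11.0%), with a median of 0.20. The OVSAHO difference minus the KURAMOCHI difference was below 0 and passed for 10 of 12, as for 11.7% of all probes. DHCR7, which completes cholesterol from its last precursor, was at 6.59 and 6.57 in KURAMOCHI with simvastatin, 5.07 and 5.04 with L-778123, 4.78 and 4.78 in OVSAHO with simvastatin and 4.85 and 4.96 with L-778123. It rose by 1.52 in KURAMOCHI (adjusted p from limma 1.52e-04), where MSMO1, a sterol methyl oxidase, rose by 1.30 (0.00125) and CYP51A1, the lanosterol demethylase, by 1.29 (2.07e-04). LSS, the cyclase that makes lanosterol, was the 1 gene called in OVSAHO, at 1.09 (2.76e-04), and rose by 1.01 in KURAMOCHI (8.16e-04). The genes that fell in OVSAHO were LBR (-0.55, adjusted p from limma 0.00142), a lamin B receptor with sterol reductase activity, and EBP (-0.35, 0.00858), a sterol isomerase. EBP rose in KURAMOCHI, by 0.37 (adjusted p from limma 0.0118).

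Of 12 genes of sterol sensing and uptake, 5 were higher and 1 lower in KURAMOCHI, with a median of 0.20, beside 14.0% and 17.3% of all probes. In OVSAHO 5 were higher and 2 lower, with a median of 0.068, beside 23.0% and 25.1% of all probes. INSIG1, which holds the sterol sensor in the endoplasmic reticulum, was at 4.33 and 4.29 in KURAMOCHI with simvastatin against 1.74 and 1.58 with L-778123, and at 2.39 and 2.46 in OVSAHO with simvastatin against 1.44 and 1.36. It rose by 2.66 (adjusted p from limma 1.06e-04) and 1.02 (2.57e-04), above every one of the 8 enzymes in each line. STARD4, a cholesterol transfer protein, rose by 1.72 (adjusted p from limma 3.98e-04) in KURAMOCHI and by 0.73 (0.00301) in OVSAHO. Of the sterol regulatory element binding proteins themselves, SREBF2 rose by a like amount in both lines, 0.63 (0.00121) and 0.56 (7.87e-04), while SREBF1 fell by 1.10 in OVSAHO (1.61e-04) and by 0.27 in KURAMOCHI (0.0349), each by limma.

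Of 13 genes of the branches that use prenyl diphosphates for ends other than sterols, 1 was higher and 4 were lower in KURAMOCHI (median -0.051), beside 14.0% and 17.3% of all probes. In OVSAHO 3 were higher and 5 lower (median -0.15), beside 23.0% and 25.1% of all probes. PDSS1, which makes the polyprenyl tail of coenzyme Q, fell by 1.01 in KURAMOCHI, from 3.10 and 3.01 with L-778123 to 2.06 and 2.02 with simvastatin, and by 1.55 in OVSAHO, from 3.16 and 2.99 to 1.59 and 1.47 (adjusted p from limma 8.49e-04 and 9.51e-05). It was the only gene of the list called in either line. Of all probes, 5.60% were called in KURAMOCHI and 11.0% in OVSAHO. GGPS1, the enzyme directly after FDPS toward geranylgeranyl diphosphate, rose by 0.40 in KURAMOCHI (adjusted p from limma 0.00930) and by 0.23 in OVSAHO (0.0400). Of 6 genes of acetyl-CoA supply and related enzymes, 5 were tested and IDI2 did not pass the filter. In KURAMOCHI 1 was higher and 2 were lower (14.0% and 17.3% of all probes), and in OVSAHO 3 were higher and 1 was lower (23.0% and 25.1% of all probes). ACSS2, which makes acetyl-CoA from acetate in the cytosol, rose by 0.59 in KURAMOCHI (0.00199) and 0.50 in OVSAHO (0.00179) by limma.

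**Figure D5:**
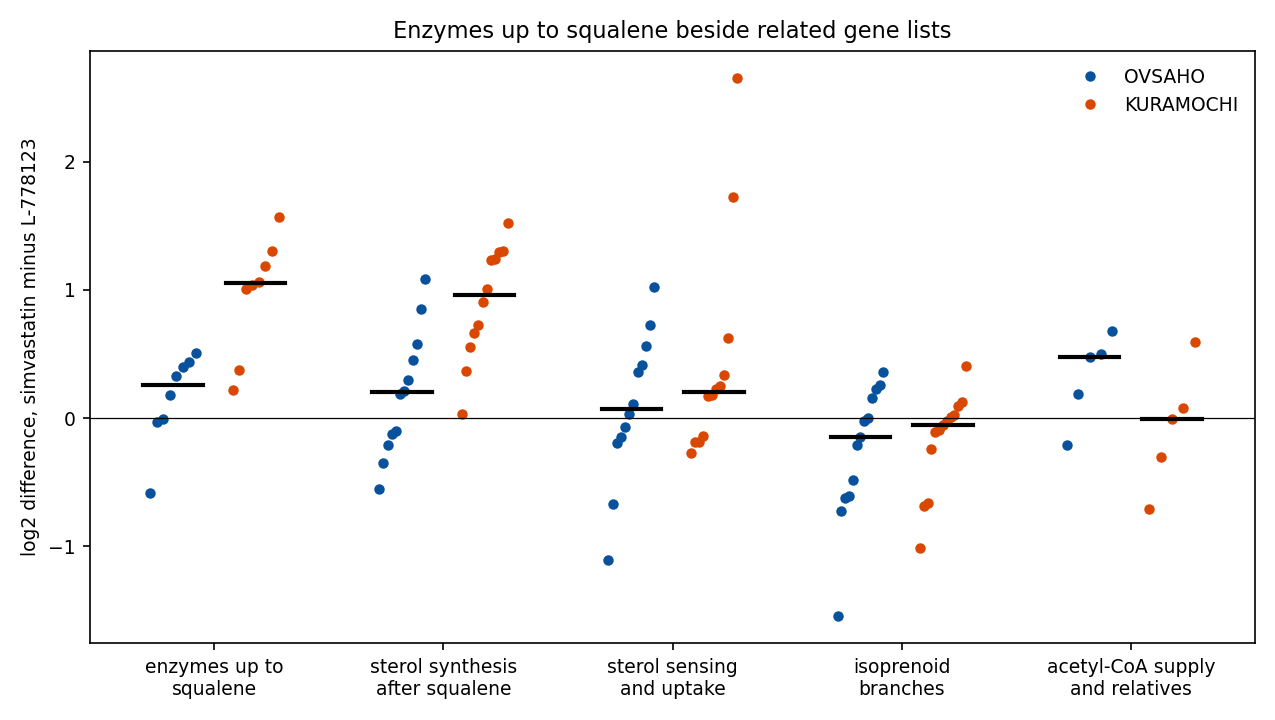
Difference between simvastatin and L-778123 (y axis, log2, positive where higher with simvastatin) for each tested gene, by gene list (x axis), in OVSAHO (blue) and KURAMOCHI (orange), with 1 point per gene in rising order and a black bar at the median of the list. In KURAMOCHI the medians of the 8 enzymes (1.05) and of the genes after squalene (0.96) lie above that of the isoprenoid branches (-0.051).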

How the data were processed

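RNA of the treated cells was measured on single-colour SurePrint G3 arrays, and samples were grouped by their labels. The authors extracted the scans with Feature Extraction 11.5.1.1 (submitters' processing notes) and deposited for each spot a processed signal, an intensity corrected for background but not normalized between arrays, with flags. They also deposited a table of normalized intensity, used as an alternative, which has the same distribution on every array although the methods state a 75th percentile normalization.

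Control spots and outlier spots (58 to 99 per array) were left out, the spots of a probe were averaged on the log2 scale, and the 75th percentile of each array was subtracted. A probe was kept where the 2 arrays of any group were well above background, which left 33753 of 58162. Symbols came from RefSeq accessions, which named 24764 of 50069 identifiers. The differences came from limma 3.58.1 (lmFit and eBayes in R 4.3.3, on the 4 groups together, Benjamini-Hochberg adjustment over all probes kept). A probe passed at an adjusted p under 0.05 and was called if it also differed by 2-fold. Motifs and figures were made in Python 3.11.15 with matplotlib 3.10.9. Alternatives covered filters, background correction, normalization, the authors' table, thresholds, a block for the replicate number, each array left out and the methods' analysis of variance. The enzymes and the related gene lists were chosen with earlier results of these data known. The genes named from those lists were at most 3 per list with the largest called difference in either line. In addition, LSS, LBR, EBP, SREBF2, GGPS1, ACSS2, DHDDS and HMGCLL1 were named after their values were seen. Some genes of the pathway are not reported here. The number of arrays limits the precision.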

Additional observations from a re-analysis of the deposited data

Results flagged for a closer look

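The drug difference (simvastatin minus L-778123, log2) differed between OVSAHO and KURAMOCHI by the interaction test in limma for 7 of the 8 enzymes, each below 0 as OVSAHO minus KURAMOCHI, where 11.7% of all probes passed. These values were -1.31 for IDI1, -1.17 for HMGCS1, -1.04 for ACAT2, -0.96 for FDPS, -0.75 for MVD, -0.73 for MVK and -0.53 for FDFT1. Among the 8 enzymes, only FDPS, the farnesyl diphosphate synthase, passed in opposite directions, -0.58 in OVSAHO and 0.38 in KURAMOCHI. In the related gene lists EBP (-0.35 and 0.37), DHDDS (0.26 and -0.24) and HMGCLL1 (0.68 and -0.71) also did so, in the same order of lines. HMGCLL1 was well above background on 5 arrays. The share of all probes that passed in opposite directions was not counted. With 2 arrays per group, no array could be tested as an outlier.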

How the results depend on the processing

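Of 560 differences of single enzymes under alternatives, 530 kept their direction and their side of the threshold. Many of these alternatives could change only the adjusted p and not the difference itself. They were the probe filters, the block, the groups compared alone, the analysis of variance and the median over probes. For a drug difference within a line, leaving out an array of the other line is of this kind too. The count of 530 was thus partly fixed in advance. The count of enzymes called was 0 in OVSAHO and rose to 5 with the adjusted p alone. At that threshold 23.0% of all probes passed as higher and 25.1% as lower in OVSAHO. The count between the lines averaged over both drugs, 2, rose to 4 at 1.5-fold and to 8 with the adjusted p alone. With the adjusted p alone 77.7% of all probes passed between the lines, and the share at 1.5-fold was not counted. Leaving out 1 array gave 0 calls in OVSAHO each time, 5 to 6 in KURAMOCHI, 6 to 7 enzymes with a different drug difference, and 2 between the lines averaged over both drugs. ACAT2 in OVSAHO turned to 0.0030 with quantile normalization, 0.0034 in the authors' table, and 0.014 and 0.17 without the first simvastatin or the first L-778123 array of OVSAHO. IDI1 in OVSAHO turned to 0.026 with quantile normalization and in the authors' table, 0.0068 with the percentile over bright probes, and 0.031 and 0.075 without the second simvastatin or the first L-778123 array of OVSAHO. For PMVK the OVSAHO drug difference minus the KURAMOCHI one turned to 0.011 and 0.018 without the second simvastatin or the second L-778123 array of KURAMOCHI. With each array left out in turn, ACAT2 in OVSAHO ran from -0.23 to 0.17, IDI1 in OVSAHO from -0.094 to 0.075 and the PMVK drug difference between lines from -0.097 to 0.018. These 11 turned values concern differences that did not pass in the main setting. The cause was not tested. In the 2-way analysis of variance ACAT2 no longer passed for the drug difference in KURAMOCHI (1.01) or for the OVSAHO drug difference minus the KURAMOCHI one (-1.04), and the latter was also lost with no filter on dim probes. PMVK passed in OVSAHO at 0.21 with quantile normalization and in the authors' table.

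The replicate numbers are shared between groups by label, and same-numbered arrays deviated together only weakly (r 0.00085 to 0.056 over probes). The labels do not say whether same-numbered arrays were handled together. With the number as a block, the counts were 0 in OVSAHO, 6 in KURAMOCHI, 7 for the drug difference between lines and 2 between the lines averaged over both drugs, and it moved no enzyme across the threshold. With 2 arrays per group, small differences such as those of PMVK are near the limit of what these arrays separate.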
